A study of Homo sapiens with 4 samples.

Results

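Aminoacyl-tRNA synthetases are the enzymes that join each amino acid to its tRNA, and their transcripts were followed here through a precipitation of the RNA-binding protein QKI7. The members were 36 genes named by symbol, chosen as a gene family and not by a measured value, and 35 of them were found among the 26830 genes of the table (VARS2 was not analysed here). They divide into 20 genes for cytosolic enzymes and 15 for mitochondrial enzymes. Symbols are the older ones of the table, so that AARS is the gene now named AARS1. All libraries came from U2OS, an osteosarcoma cell line, infected with a lentivirus for Flag-tagged QKI7, of which the GFP-positive cells alone were kept and expanded without further treatment. The input group (n = 2) is RNA of the lysate, and the Flag-RIP group (n = 2) is RNA recovered from such lysates with a Flag antibody after ultraviolet cross-linking and sonication. Both groups therefore carry the transgene, and neither a mock precipitation nor cells without the tag were analysed here, so recovery specific to QKI7 cannot be told apart from recovery by the beads or the antibody. The labels do not say whether the replicates were separate cultures, and p-values therefore measure the spread between libraries, which may be technical only.

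A synthetase activates its amino acid with ATP and transfers it to the end of the matching tRNA, and the ribosome reads the charged tRNA. Cells of animals make protein in the cytosol and in mitochondria, and most amino acids have a separate nuclear gene for each compartment, the mitochondrial enzyme usually carrying the suffix 2 in its symbol. GARS and KARS serve both compartments from a single gene, EPRS joins the enzymes for glutamate and proline in a single chain, and the cytosolic enzyme for phenylalanine is built from the products of FARSA and FARSB. Several cytosolic enzymes sit together in the multi-synthetase complex, held by the scaffold proteins AIMP1, AIMP2 and EEF1E1. QKI is a STAR-domain protein that binds RNA with the motif ACUAAC, and QKI7 is an isoform of it that differs at its C-terminal end.

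Values are TPM, a share of each library corrected for transcript length, so they hold no read depth and no counting interval can be given. A TPM of at least 1 was reached by 6117 and 7803 genes in input and by 11970 and 12098 in Flag-RIP. The ERCC spike-ins, synthetic RNAs added to the samples, took 2.78% and 3.89% of the input libraries and 18.9% and 25.6% of the Flag-RIP libraries. The library medians lay 1.32 log2 units higher in Flag-RIP. The tagged gene had a TPM of 3.83 and 5.85 in input and 60.7 and 42.0 in Flag-RIP, with reads of transgene and endogenous QKI combined. Of the markers checked for this mesenchymal line, VIM (140.5 to 279 TPM over the 4 libraries) and COL1A1 (53.8 to 116) were abundant. SPARC had 35.15 and 46.43 TPM in input, FN1 19.74 and 27.21, CD44 1.47 and 2.23, and RUNX2 0.61 and 1.12. Over the 4 libraries COL1A2 lay at 0.10 to 0.34, and markers of other lineages (EPCAM, CDH1, PTPRC, ALB, HBB and CD3E) between 0 and 0.58.

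In the inputs the cytosolic transcripts were more abundant than the mitochondrial ones. In input the tested cytosolic members had a median TPM of 5.48 and 7.87, and the tested mitochondrial members of 1.17 and 1.75. GARS, for glycine, had the highest input levels at 16.4 and 21.1 TPM, followed by QARS, for glutamine, at 15.9 and 20.6. These neighbours in the order did not differ beyond the spread of their libraries. MARS, for methionine, had 13.0 and 17.1 TPM. The lowest cytosolic members were FARSB, at 0.89 and 1.39 TPM, and DARS, for aspartate, at 0.84 and 1.45. Among mitochondrial members IARS2, for isoleucine, was highest at 2.46 and 3.87 TPM and MARS2 lowest at 0.21 and 0.26. Input replicate 1 lay below input replicate 2 for all 35 members found, whereas Flag-RIP replicate 1 lay below Flag-RIP replicate 2 for 22 of them. The library medians were 1.29 and 2.01 TPM in the inputs, the same order, and 5.72 and 5.37 in Flag-RIP, where replicate 1 had the higher median.

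**Figure D1:**
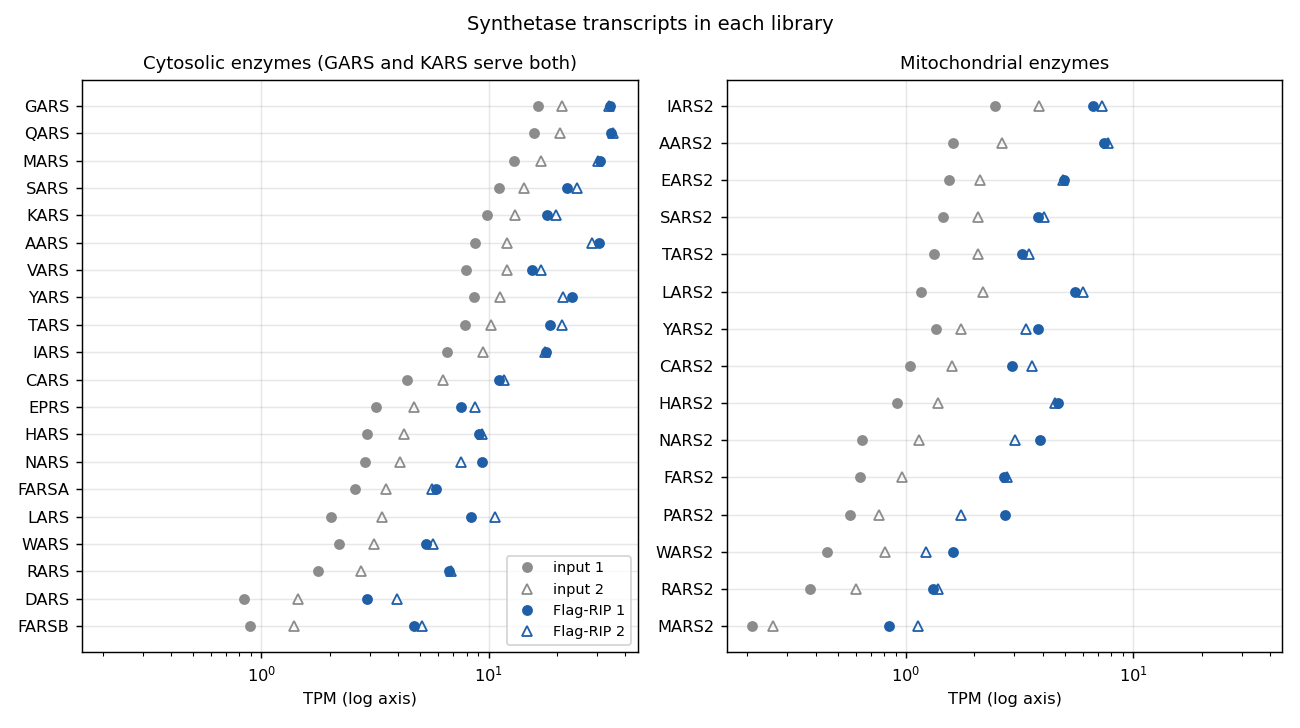
TPM of each member in the 4 libraries on a log axis, cytosolic enzymes on the left and mitochondrial enzymes on the right, ordered by mean input level; grey marks are input, blue marks Flag-RIP, circles replicate 1 and triangles replicate 2. Every member has both Flag-RIP values above both inputs, and input 1 lies left of input 2 throughout.

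As a share of the library, every synthetase transcript was higher after the precipitation. Summed over the 35 members, the TPM was 145 and 200.4 in input and 373 and 380 in Flag-RIP. Of the members 33 reached a mean TPM of 1 over the 4 libraries and were tested, and all 33 were called higher on the deposited scale (limma, adjusted p under the threshold of 0.05), as were 92.3% of all tested genes, against 0.317% called lower. For all 33 both Flag-RIP values lay above both inputs, as they did for 96.7% of all tested genes. The filter counts Flag-RIP values as well, so genes low in input could pass it only through Flag-RIP. Among the members these were FARS2, NARS2, PARS2 and WARS2, with mean input TPM of 0.795, 0.89, 0.665 and 0.63. Both shares over all tested genes carry the same limit. The deposited fit also took each gene's variance from a trend over all tested genes and not from its own libraries. The median ratio of mean Flag-RIP to mean input TPM was 2.25 over the tested members and 3.32 over all tested genes. The number of members called on this scale was 3 cytosolic and 5 mitochondrial without Flag-RIP replicate 1, where 5396 of the 10415 tested genes were called higher, and 2 and 6 without Flag-RIP replicate 2, where 6187 were. The median log2 change on this scale was then 1.00 and 0.96 over the cytosolic members and 1.01 and 1.05 over the mitochondrial members, in the same order of left-out libraries.

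Because nearly every gene rose on the deposited scale, the members were next compared with all libraries brought to the same median. The resulting centred change is in log2 of TPM + 1, and 0 is a change equal to the shift of the library medians. On this scale 13 of the 33 tested members fell and 0 rose, which is 39.4% of them lower, while 24.4% of all tested genes were called lower and 16.4% higher. The members' median centred change was -0.33, with a range from -0.74 to 0.21, while the median over all tested genes was -0.11. A change of 0 on this scale thus lies above the median change of all tested genes. Of the cytosolic members 7 of 20 fell (35.0%, median -0.30), and of the mitochondrial members 6 of 13 (46.2%, median -0.36). Plain ratios gave the other order, with a median of 2.16 over the cytosolic and 2.70 over the tested mitochondrial members. The mitochondrial members were the lower in level, where the added 1 makes a rise look smaller and so lowers the centred change. From 1 to 2 TPM all tested genes had a median ratio of 3.85 but a median centred change of -0.29. All 13 calls were lost without input replicate 1 and likewise without input replicate 2, although each of these 13 changes stayed below 0 without either input. Without Flag-RIP replicate 1 the calls of EPRS, GARS, SARS and IARS2 were lost, and without Flag-RIP replicate 2 that of GARS. The counts also moved with the scale. With a pseudocount of 0.1, 14 cytosolic and 5 mitochondrial members fell (2649 of the 10415 tested genes). With a pseudocount of 5, 3 cytosolic and 7 mitochondrial members fell (3483 genes). After scaling to the ERCC total in place of the common median, 19 cytosolic and 11 mitochondrial members fell (6339 genes). That decrease is relative to the spike-ins and not to the library medians. With no filter, where the library medians include many low genes, 0 fell and 6 of each rose. In that run 7737 of 26830 genes rose and 11882 fell (limma, adjusted p under 0.05 in all of these runs).

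**Figure D2:**
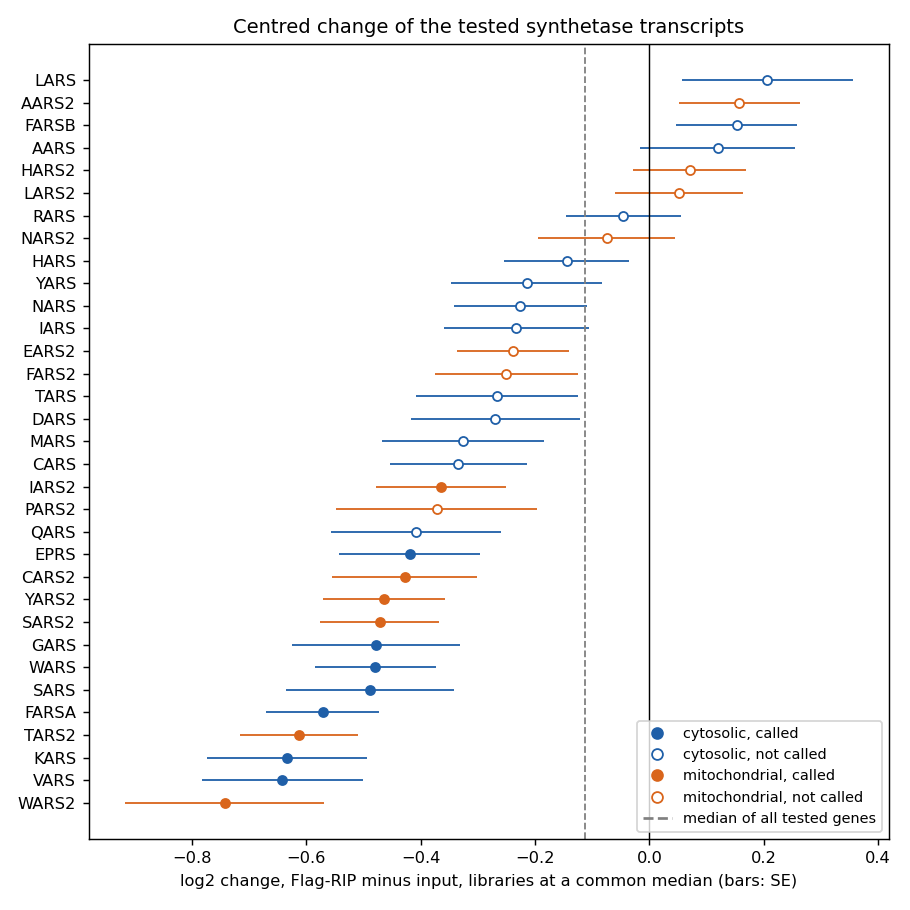
Centred log2 change (Flag-RIP minus input, bars are the SE from the limma fit) of the 33 tested members, blue for cytosolic and orange for mitochondrial, filled where the adjusted p was under 0.05. The filled points all lie below 0, from -0.74 for WARS2 to -0.36 for IARS2, and the dashed line marks the median of all tested genes at -0.11.

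Among the cytosolic enzymes that fell relative to the library medians, those for valine and lysine were lowest. VARS, the valyl enzyme, had 7.93 and 12.0 TPM in input and 15.6 and 16.9 in Flag-RIP, a ratio of 1.63, and its centred change was -0.64 ± 0.14 (SE, limma adjusted p = 0.01). KARS, the lysyl enzyme, had 9.86 and 13.1 TPM in input and 18.1 and 19.7 in Flag-RIP, a ratio of 1.64, and its centred change was -0.63 ± 0.14 (SE, limma adjusted p = 0.011). The Flag-RIP values of both lie above the inputs, and only their rise is small beside that of other genes, since 7.31% of all tested genes had a smaller ratio than VARS and 7.60% a smaller ratio than KARS. FARSA, the catalytic subunit for phenylalanine, went from 2.59 and 3.53 TPM to 5.88 and 5.65, and its centred change was -0.57 ± 0.10 (SE, limma adjusted p = 0.0045). SARS, for serine, went from 11.2 and 14.3 TPM to 22.1 and 24.4, a change of -0.49 (limma adjusted p = 0.032), and GARS from 16.4 and 21.1 TPM to 34.3 and 34.0, a change of -0.48 (limma adjusted p = 0.035). WARS, for tryptophan, went from 2.19 and 3.12 TPM to 5.28 and 5.69, a change of -0.48 (limma adjusted p = 0.01). EPRS, the fused enzyme, went from 3.19 and 4.70 TPM to 7.58 and 8.67, a change of -0.42 (limma adjusted p = 0.029).

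The mitochondrial enzymes that fell were those for tryptophan, threonine, serine, tyrosine, cysteine and isoleucine. WARS2 had the lowest centred change of the family, -0.74 ± 0.17 (SE, limma adjusted p = 0.013), with 0.45 and 0.81 TPM in input and 1.61 and 1.23 in Flag-RIP. Its ratio of 2.25 was at the median of the tested members, and its mean of 1.025 TPM over the 4 libraries was close to the filter. At such levels the added 1 in log2(TPM + 1) makes a rise look smaller than the ratio, and so lowers the centred change. TARS2, for threonine, went from 1.33 and 2.07 TPM to 3.25 and 3.47, a ratio of 1.98, the lowest among the tested mitochondrial members, with a centred change of -0.61 and an SE of 0.10 (limma adjusted p = 0.0042). SARS2 went from 1.45 and 2.07 TPM to 3.80 and 4.06, a change of -0.47, and YARS2 from 1.35 and 1.75 to 3.83 and 3.37, a change of -0.46 (limma adjusted p = 0.011 and 0.013). CARS2 went from 1.04 and 1.59 TPM to 2.94 and 3.60, a change of -0.43, and IARS2 from 2.46 and 3.87 to 6.64 and 7.26, a change of -0.36 (limma adjusted p = 0.031 and 0.036).

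At the other end of the family, 6 of the 33 tested members had a centred change above 0, as had 4221 of the 10415 tested genes. None of the 6 passed the test. LARS, for leucine, had the highest, 0.21 ± 0.15 (SE, limma adjusted p = 0.29), with 2.02 and 3.38 TPM in input and 8.34 and 10.7 in Flag-RIP. AARS2, for mitochondrial alanine, had 0.16, with 1.61 and 2.65 TPM in input and 7.42 and 7.74 in Flag-RIP. Its cytosolic counterpart AARS had 0.12, with 8.69 and 12.1 TPM against 30.5 and 28.4. FARSB had 0.15, HARS2, for mitochondrial histidine, 0.07, and LARS2, for mitochondrial leucine, 0.05. Both alanine and both leucine enzymes thus stood among the 6. LARS2 had 1.17 and 2.19 TPM in input and 5.56 and 6.04 in Flag-RIP, a ratio of 3.45 that lies near the 3.32 of the median gene.

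The remaining members lay between these ends and were not called on the centred scale. QARS went from 15.9 and 20.6 TPM to 34.6 and 35.2, a change of -0.41 just outside the threshold (limma adjusted p = 0.06), and CARS, for cysteine, from 4.37 and 6.29 to 11.1 and 11.7, a change of -0.33 (limma adjusted p = 0.057). MARS reached 30.8 and 30.3 TPM in Flag-RIP, a ratio of 2.04 and a change of -0.33. The ratios of TARS (2.18), IARS (2.23), YARS (2.25), NARS (2.45) and HARS (2.57) were also below that of the median gene, and their centred changes ran from -0.27 to -0.14. DARS had a ratio of 2.99 and RARS, for arginine, of 3.00. Of the mitochondrial enzymes EARS2, for glutamate, had a ratio of 2.70, PARS2, for proline, of 3.37, FARS2 of 3.45 and NARS2, for asparagine, of 3.88. PARS2 differed between its Flag-RIP libraries, at 2.74 and 1.74 TPM, from inputs of 0.57 and 0.76. MARS2 (0.84 and 1.13 TPM in Flag-RIP) and RARS2 (0.38 and 0.60 TPM in input, 1.31 and 1.39 in Flag-RIP) stayed under the filter, and their ratios were 4.19 and 2.76.

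Across the table the ratio fell with expression level, so the members were also set beside genes of their own level. The median ratio was 3.85 over the 2666 tested genes with a mean TPM from 1 to 2 and 2.55 over the 596 genes from 16 to 32. These levels are means over all 4 libraries, so a gene low in input could reach its level through Flag-RIP, as with the filter. Of the 20 cytosolic members 17 lay below the median ratio of their level, and so did 10 of the 13 tested mitochondrial members. Below the lower quartile of their level lay 12 members, 6 cytosolic and 6 mitochondrial, and above the upper quartile lay 0. At the level from 8 to 16 TPM the 5 cytosolic members had a median ratio of 2.13 against 2.88 for all 1372 genes, and at 16 to 32 TPM the 6 cytosolic members had 1.97 against 2.55. AARS, at 2.84, was the member of that highest level above its median. Spearman's rho between mean TPM and ratio was -0.50 over the 20 cytosolic members, 0 over the 13 tested mitochondrial members, -0.55 over both together and -0.28 over all tested genes, as a description across genes that share the same libraries.

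**Figure D3:**
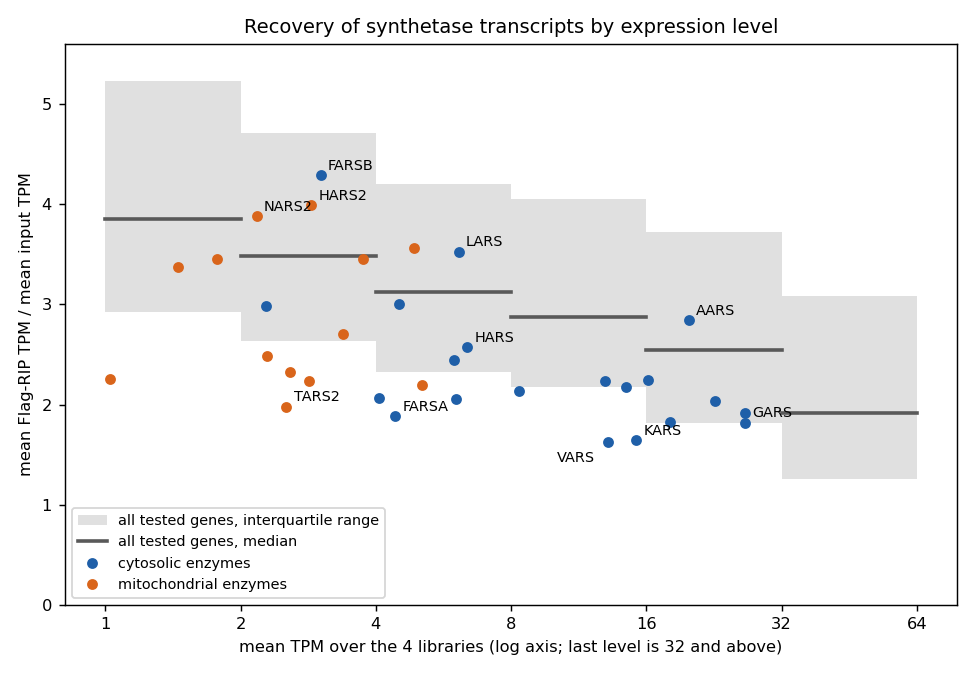
Ratio of mean Flag-RIP to mean input TPM against mean TPM over the 4 libraries (log axis) for the 33 tested members, blue for cytosolic and orange for mitochondrial; dark lines and grey boxes give the median and interquartile range of all tested genes at each level. None of the members lies above a grey box and 12 lie below one.

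Levels of the cytosolic and the mitochondrial enzyme for the same amino acid were compared within each library. The scaling of libraries cancels there in plain TPM, but not once 1 is added to each value. In plain TPM the cytosolic share was smaller after the precipitation in most pairs. The cytosolic gene was the more abundant of every pair, and over all tested genes the median ratio of Flag-RIP to input fell with level. It was 3.85 from 1 to 2 TPM and 2.55 from 16 to 32 TPM, with the level taken over input and Flag-RIP alike. The part of level in the pairs was not tested. The ratio of cytosolic to mitochondrial TPM was lower in both Flag-RIP libraries than in both inputs for 10 of 16 pairs, higher for 2, and overlapped for 4. With 1 added to each TPM, as in the rest of the tests, the counts were 4 lower, 8 higher and 4 overlapping, so the direction or the separation depends on the added constant in several pairs. Both measures gave a lower ratio for HARS/HARS2, NARS/NARS2, EPRS/EARS2 and FARSA/FARS2 and a higher one for RARS/RARS2 and FARSB/FARS2. NARS/NARS2 was 4.47 and 3.56 in input and 2.41 and 2.50 in Flag-RIP. EPRS/EARS2 was 2.07 and 2.22 in input and 1.53 and 1.76 in Flag-RIP. RARS/RARS2, whose mitochondrial member is under the filter, was 4.68 and 4.55 in input and 5.11 and 4.93 in Flag-RIP. With 2 libraries a group the smallest exact two-sided permutation p is 0.333, so these ratios carry no test. Several pairs share a gene, EPRS or FARS2, and are not independent.

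The widest level ratio was that of the methionine enzymes, whose mitochondrial form was the scarcest member. MARS/MARS2 was 61.8 and 65.6 in input and 36.7 and 26.8 in Flag-RIP in plain TPM. With 1 added to each TPM the log2 ratio went the other way, from 3.53 and 3.84 in input to 4.11 and 3.88 in Flag-RIP. By contrast LARS/LARS2 was 1.73 and 1.54 in input and 1.5 and 1.77 in Flag-RIP, so that cytosolic and mitochondrial leucine enzymes differed little in level in any library. TARS/TARS2 (5.92 and 4.97 in input, 5.72 and 6.04 in Flag-RIP), IARS/IARS2 and WARS/WARS2 overlapped as well. Taken over the tested members, the median cytosolic level was 4.68 and 4.49 times the median mitochondrial level in the inputs and 3.47 and 3.98 times in Flag-RIP. On the log2(TPM + 1) scale the same difference of medians was 1.56 and 1.67 in input and 1.55 and 1.71 in Flag-RIP, a shift of 0.02 between the groups against a replicate SD of 0.10. The sign of that shift turned with other pseudocounts and filters, from -0.25 at a pseudocount of 0.1 to 0.26 at 5.

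**Figure D4:**
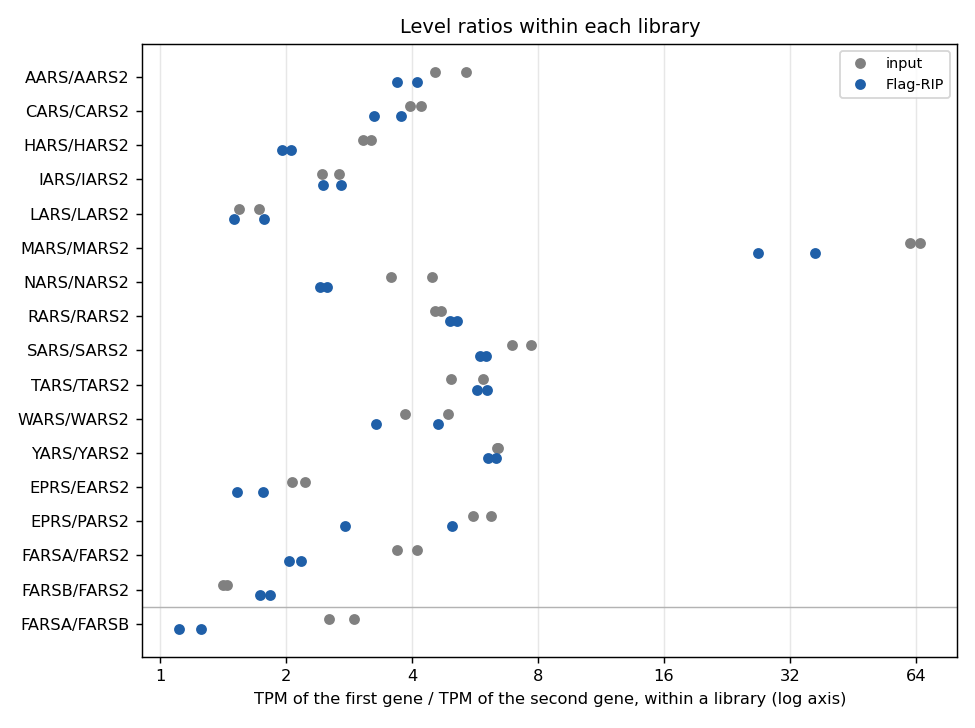
TPM of the first gene over TPM of the second within each library (log axis, no pseudocount), grey for the 2 inputs and blue for the 2 Flag-RIP libraries, for the 16 cytosolic and mitochondrial pairs and, below the line, for the subunits FARSA and FARSB. FARSA/FARSB goes from 2.91 and 2.54 in input to 1.25 and 1.11 in Flag-RIP, and MARS/MARS2 stands apart at 26.8 to 65.6.

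The subunits of the cytosolic phenylalanine enzyme, which assemble in equal numbers, were recovered to different extents. FARSA, with a ratio of 1.88, was among the lowest members, and FARSB, with 4.29, had the highest ratio of all 35. FARSB went from 0.89 and 1.39 TPM to 4.70 and 5.08. Within a library FARSA was 2.91 and 2.54 times as abundant as FARSB in input and 1.25 and 1.11 times in Flag-RIP. The groups do not overlap, and the gap is larger than the SD between replicates (0.26 in input, 0.10 in Flag-RIP). Placed beside the single-chain mitochondrial FARS2, the ratio of FARSA fell from 4.11 and 3.68 to 2.17 and 2.03, while that of FARSB went from 1.41 and 1.45 to 1.73 and 1.83. This comparison of subunits was chosen after the values were seen. The genes also differ in length, with 11233 bases for FARSA and 89194 for FARSB, introns included. Over all tested protein-coding genes the median ratio was 2.64 under 20 kb and 3.81 at 80 kb and more. The part of length in the gap was not tested.

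The histidine enzymes are neighbours in the genome. In GRCh38 HARS lies on chromosome 5 from 140673905 to 140691370 and is read leftward, and HARS2 lies from 140691455 to 140699305 and is read rightward, so that their start sites face away from each other across 84 bases. The stretch between the annotated starts, chr5:140691371-140691454 on the plus strand, from the RefSeq table of GRCh38.p14, is shown because both genes begin at it. Its 9 CpG dinucleotides are in capitals, and 59.5% of its bases are G or C, against a median of 58.7% over the 35116 promoter windows of the table.

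HARS to HARS2: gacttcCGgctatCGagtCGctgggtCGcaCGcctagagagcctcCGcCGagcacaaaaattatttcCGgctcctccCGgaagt

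From this shared start region HARS had 2.90 and 4.25 TPM in input and 9.09 and 9.31 in Flag-RIP, and HARS2 had 0.91 and 1.39 in input and 4.65 and 4.53 in Flag-RIP. HARS/HARS2 was thus 3.19 and 3.06 in input and 1.95 and 2.06 in Flag-RIP, with no overlap on either scale. The centred changes were -0.14 for HARS and 0.07 for HARS2, and neither passed (limma adjusted p = 0.31 and 0.59). The coding sequences of these genes are related, so the division of shared reads between them is uncertain.

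Synthetases fall into classes I and II by the fold of the catalytic domain. Of 16 tested class I members 7 fell, with a median centred change of -0.35, and of 17 class II members 6 fell, with a median of -0.27 (EPRS, which joins both classes, was counted in class I). The median ratio was 2.24 and 2.57. Among the mitochondrial members the classes lay further apart, with 4 of 6 lower and a median ratio of 2.40 in class I, and 2 of 7 lower and a median ratio of 3.45 in class II. Among the cytosolic members 3 of 10 and 4 of 10 fell, with median ratios of 2.10 and 2.31. The difference between classes was not tested. Of the 8 enzymes of the multi-synthetase complex 2 fell, KARS and EPRS, which is 25% beside the 24.4% of all tested genes, with a median of -0.30, and of the other 12 cytosolic members 5 fell, with the same median of -0.30. Ratios within the complex ran from 1.64 for KARS to 3.53 for LARS, against 1.63 to 4.29 over all tested members. Of its scaffolds AIMP2 went from 4.56 and 5.51 TPM to 7.2 and 9.12, and its centred change was -0.72 (limma adjusted p = 0.0089), and AIMP1 from 0.96 and 1.37 to 3.20 and 3.54, with -0.30 and no call. EEF1E1 also fell, with a change of -0.75.

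Other genes that act on tRNA showed decreases as well as increases on the centred scale. Of 14 tested genes for tRNA end processing and splicing 8 fell and 0 rose (57.1% lower, median -0.45). RTCB, the tRNA ligase, fell by 0.66 (7.07 and 9.42 TPM in input, 12.9 and 14.1 in Flag-RIP) and POP7, a protein of RNase P, fell by 0.94 (6.77 and 7.2 TPM against 8.22 and 10.7). Of 30 tested genes for tRNA modification 9 fell and 2 rose (median -0.24), a share of 30.0% lower that lies near the 24.4% of all tested genes and is not a result about the list, while 16.4% of all tested genes rose. Those that rose were NSUN2, a cytosine methyltransferase, with a change of 0.46 (2.69 and 4.47 TPM against 15.1 and 13.7), and WDR4, the partner of METTL1 in tRNA methylation, with 0.88. DUS1L, a dihydrouridine synthase, had 0.12 and did not pass. Of 5 tested partners in editing and amidation 2 fell and 0 rose (median -0.43), GATB with a change of -0.92 and DTD1 with -0.61, while AARSD1, an editing protein, had -0.25 and did not pass.

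The response to amino acid starvation is linked to the synthetases through uncharged tRNA, which activates the kinase GCN2, the product of EIF2AK4. All 18 genes of that list were tested, of which 5 fell (27.8%) and 3 rose (median -0.10, close to that of all tested genes). These counts lie near the 24.4% lower and 16.4% higher of all tested genes and are not a result about the list. PSAT1, an enzyme of serine synthesis, rose most, from 1.44 and 1.87 TPM to 19.4 and 12.3, with a centred change of 1.32 and an SE of 0.18 (limma adjusted p = 0.0021). EIF2AK4 itself went from 2.86 and 4.09 TPM to 22.8 and 15.6, a change of 0.85 (limma adjusted p = 0.006). PPP1R15A, a regulatory subunit of the phosphatase that acts on eIF2, was the third, with a change of 0.74. ATF4, the transcription factor of this response, went from 33.0 and 45.5 TPM to 133 and 109, with 0.29 and no call, and SLC7A5, an amino acid transporter, had 0.22. The amidotransferase gene ASNS, which makes asparagine, fell by 0.48. TRIB3, SHMT2, SLC3A2 and SESN2 also fell, with changes of -0.60, -0.46, -0.43 and -0.30.

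The ratio was finally set beside the length of the gene in the genome, introns included, from the RefSeq table. Over 9478 tested protein-coding genes found there, the median ratio was 2.64 for genes under 20 kb and 3.81 for genes of 80 kb and more. The 10 tested members under 20 kb had a median ratio of 2.28, and the 6 of at least 80 kb had 3.45. Members from 20 to 40 kb had a median of 2.18 against 3.22 for all genes of that length, and those from 40 to 80 kb had 2.22 against 3.46. Within their own length range 27 of the 33 tested members lay below the median. Spearman's rho between length and ratio was 0.52 over the 20 cytosolic members, 0.03 over the 13 mitochondrial members and 0.33 over all these genes. This relation was examined after the values were seen, and points share the same 4 libraries. In the cytosolic members length also went with level (rho of -0.38), and the part of either in the ratio was not tested.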

How the data were processed

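RNA of 4 libraries was sequenced, and the authors deposited 1 table of TPM values with 1 column per library, made with STAR and RSEM version 1.2.31 on the GRCh38 build, per the submitters' processing notes. Annotation, strand setting and filters were not given in the sources used here. Columns sum to 1000000 within rounding, 92 ERCC rows included. TPM keeps no depth, and the most abundant RNAs affect the scale of the rest.

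The 10415 genes whose mean TPM reached 1 (spike-ins left out) were tested on log2(TPM + 1) in R 4.3.3 with limma 3.58.1, using eBayes with a variance trend. Tests were two-sided, with p-values adjusted by Benjamini-Hochberg over all of these genes and a threshold of 0.05. The pseudocount of 1 understates the rise of low genes on the deposited scale, which lowers their centred changes. The fit was run as deposited and after each library was shifted to a common median. As deposited, the estimated prior degrees of freedom were infinite, so the variance of each gene came wholly from the trend. The procedure was tested on data simulated on the centred scale, with independent noise and known changes in 200 genes. That test does not cover the fit as deposited. Plain ratios are of mean TPM. The members and lists were chosen with earlier results of these data known, so no list was tested. Named were all members, the 2 most abundant genes of each other list and its called genes with a change of at least 1, and others after their values were seen. Older symbols were matched through the RefSeq table (GRCh38.p14). Alternatives were other pseudocounts (0.1 and 5), filters, scalings, no variance trend, a replicate block and leaving out each library. VARS2 is not reported here.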

Additional observations from a re-analysis of the deposited data

How the results depend on the processing

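No call of a member changed sign on the deposited scale under any alternative run. Centred changes did, because the zero point moves with the filter, pseudocount and scaling, and except where a value shows the cause, the cause was not tested. With no filter on low values the medians were 0.478 for cytosolic and 0.411 for mitochondrial members, 6 of each were higher and 0 lower, 7737 genes were higher and 11882 lower, and on the deposited scale 73 genes were lower. The members whose sign turned there were CARS 0.44, DARS 0.51, EPRS 0.36, FARSA 0.20, GARS 0.30, HARS 0.63, IARS 0.54, KARS 0.14, MARS 0.45, NARS 0.55, QARS 0.37, RARS 0.73, SARS 0.29, TARS 0.51, VARS 0.13, WARS 0.30, YARS 0.56, CARS2 0.35, EARS2 0.54, FARS2 0.53, IARS2 0.41, NARS2 0.70, PARS2 0.40, SARS2 0.30, TARS2 0.16, WARS2 0.033 and YARS2 0.31. With a mean TPM of at least 5, fewer genes were tested, with 3476 higher as deposited and 1025 higher and 1171 lower centred. The medians were then -0.391 and -0.43, and 1 mitochondrial member, the one left, was called on each scale.

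With a pseudocount of 0.1 the centred medians were -0.608 for cytosolic and -0.317 for mitochondrial members, 14 cytosolic members were lower, and the deposited mitochondrial median was 1.40. AARS (-0.20) and NARS2 (0.16) changed sign. With a pseudocount of 5 the centred medians were 0.028 and -0.25, 2 cytosolic members were higher and 3 lower, and the deposited medians were 0.70 and 0.42. Turned signs were CARS 0.0031, GARS 0.059, HARS 0.065, IARS 0.16, MARS 0.17, NARS 0.0037, QARS 0.12, RARS 0.035, SARS 0.010, TARS 0.15, YARS 0.21 and HARS2 -0.025. Quantile normalization gave a mitochondrial median of -0.24 and turned NARS2 0.038. The rescaling and the spike-in scaling that follow took the place of the common median, so their changes are not relative to the library medians. Rescaling without the 20 most abundant rows gave 3740 genes higher and 735 lower, medians of -0.17 and 0.154, 1 cytosolic member higher and 1 lower, and 1 mitochondrial member higher and 0 lower, with turned signs for DARS 0.31, HARS 0.095, NARS 0.011, RARS 0.32, CARS2 0.044, EARS2 0.15, FARS2 0.49, NARS2 0.67 and PARS2 0.40. Scaling to the spike-ins gave 325 genes higher and 6339 lower, medians of -1.43 and -0.72, 19 cytosolic and 11 mitochondrial members lower, and turned AARS -1.15, FARSB -0.42, LARS -0.74, AARS2 -0.69, HARS2 -0.49 and LARS2 -0.67.

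Leaving out each library in turn gave 5396 to 9801 genes higher as deposited, and 332 to 2294 higher and 322 to 3184 lower centred. Members called as deposited ranged from 2 to 20 cytosolic and 5 to 13 mitochondrial. On the centred scale 0 to 8 cytosolic and 0 to 7 mitochondrial members were lower and 0 to 1 cytosolic members higher. Medians ranged from 0.86 to 1.2 for mitochondrial members as deposited, and centred from -0.40 to -0.28 for cytosolic and -0.32 to -0.26 for mitochondrial members. Signs turned for RARS without Flag-RIP replicate 1 (range over left-out libraries -0.098 to 0.0068), for NARS2 without Flag-RIP replicate 2 (-0.18 to 0.031) and for LARS2 without Flag-RIP replicate 2 or input replicate 1 (-0.038 to 0.14).

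The shift in the cytosolic minus mitochondrial difference (0.02) was -0.25 and 0.26 with pseudocounts of 0.1 and 5, -0.043 with no filter, -0.025 with a mean TPM of at least 5, 0.13 without GARS and KARS, and -0.063 to 0.10 over left-out libraries. In plain TPM, an alternative chosen after seeing the data, it was -0.30, with 10 pairs lower and 2 higher. With the replicate number as a block 5 cytosolic and 6 mitochondrial members were lower and 0 higher, and 1720 genes were higher and 2457 lower. The block ended the centred calls of GARS and SARS (limma adjusted p = 0.073 and 0.051) and the deposited calls of 4 cytosolic members, leaving 16. Replicates 1 and 2 deviated in input and Flag-RIP with a correlation of -0.067 across tested genes. This value cannot settle whether samples of the same number came from a shared culture, because variation from the precipitation could hide it. No variance trend changed the calls of IARS2 and QARS.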

Other observations

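A further threonyl enzyme gene outside the listed members, TARSL2, was looked up after the other values were seen. It went from 0.59 and 0.81 TPM in input to 2.81 and 2.89 in Flag-RIP, a ratio of 4.07, whereas TARS had 2.18 and TARS2 1.98. Its centred change of -0.14 did not pass (limma adjusted p = 0.44).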
